A study of Mus musculus with 6 samples.

Results

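The genes described here are those of Wnt signalling: its ligands, receptors, regulators and targets. They were taken as every gene with a Wnt or Fzd symbol followed by a digit, together with 30 listed genes of the pathway. Of 18194 genes named on the array, 59 matched. The listed factor Tcf7 was not analysed here. With the probe set of highest mean taken for each gene and a log2 value of at least 4 required on at least 3 of 6 arrays, 51 of the 59 were tested, among 14550 genes in all. The other 8 (Dkk1, Fzd10, Rnf43, Wif1, Wnt1, Wnt3, Wnt8a and Wnt10a) were under that limit. Fzd10os, a transcript named for the opposite strand of Fzd10, also matches the symbol rule and is no receptor.

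Sciatic nerves of pups on postnatal day 2 were compared between 3 double knockout (dKO) mutants, of genotype DhhCre+ HDAC1-2 dKO and labelled with peripheral hypomyelination, and 3 control littermates, labelled DhhCre–, all of mixed strain. In the mutants Hdac1 and Hdac2, which encode histone deacetylases, were deleted in Schwann cells by a Cre recombinase driven from the desert hedgehog gene. Cells never reached by that Cre keep both genes. Whether it also reached other cells of the nerve was not tested. Each array (Affymetrix Mouse Genome 430 2.0) measured total RNA of a nerve sample from which the perineurium, a sheath of the nerve, had been taken off. How many pups or nerves went into a sample is not given in the sources used here, so the spread between arrays may be partly technical.

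Wnt ligands are secreted lipid-modified proteins that bind Frizzled receptors. In the canonical branch the co-receptors Lrp5 and Lrp6 then stop a destruction complex from degrading beta-catenin, which enters the nucleus and acts with Tcf and Lef factors. Other branches act on cell polarity and calcium. In peripheral nerve, the branch through beta-catenin has been linked to the expression of myelin genes by Schwann cells.

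Tcf and Lef factors bind DNA around the core CAAAG, and the longer form ATCAAAG is closer to their preferred site. RefSeq promoter windows of build GRCm38.p6, from 250 bases before to 50 after a transcript start, were matched for 38 of the 59 genes (47 windows). On either strand ATCAAAG was found in 3 of the 47 windows, those of Sp5, Wnt11 and Wnt5b, and in 3.73% of all 32851 windows. The core, which is contained in the longer form, was in 24 of the 47 (51.1%) and in 53.9% of all. Of the 11 genes with a window that were higher in dKO nerves, 0 held the longer form and 4 held the core (Cd44, Dkk2, Fzd7 and Tcf7l2). Counted by gene, the longer form was in 4.29% of all 27025 genes, so 0 of 11 carries little information. The core was in 50% of the 38 genes. A match describes the letters and shows no binding. The windows below are those of Sp5, which holds the longer form at position -104 (the base before the start being -1), of Fzd7 and Dkk2, which were higher and hold 1 core each, and of Nkd1, which was lower and holds 0. Capitals mark CAAAG or its reverse complement.
Sp5 (chr2:70474673-70474972, plus strand): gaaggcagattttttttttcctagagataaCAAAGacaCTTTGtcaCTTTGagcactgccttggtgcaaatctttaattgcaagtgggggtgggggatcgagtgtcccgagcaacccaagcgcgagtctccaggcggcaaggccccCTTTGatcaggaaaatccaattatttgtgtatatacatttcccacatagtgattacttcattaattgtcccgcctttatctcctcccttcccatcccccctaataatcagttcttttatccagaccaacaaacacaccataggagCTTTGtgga
Fzd7 (chr1:59481897-59482196, plus strand): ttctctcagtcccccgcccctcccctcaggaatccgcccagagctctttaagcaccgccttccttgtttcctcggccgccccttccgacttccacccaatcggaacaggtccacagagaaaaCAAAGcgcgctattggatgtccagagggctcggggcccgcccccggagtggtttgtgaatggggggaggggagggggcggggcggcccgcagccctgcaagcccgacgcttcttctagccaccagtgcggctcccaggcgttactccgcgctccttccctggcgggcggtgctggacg
Dkk2 (chr3:132085042-132085341, plus strand): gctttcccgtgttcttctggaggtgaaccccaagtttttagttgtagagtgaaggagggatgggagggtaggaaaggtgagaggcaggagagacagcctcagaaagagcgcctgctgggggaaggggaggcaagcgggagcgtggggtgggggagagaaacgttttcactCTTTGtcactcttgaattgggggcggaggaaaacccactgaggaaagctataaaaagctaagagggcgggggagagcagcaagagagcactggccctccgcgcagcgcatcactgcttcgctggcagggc
Nkd1 (chr8:88527383-88527682, plus strand): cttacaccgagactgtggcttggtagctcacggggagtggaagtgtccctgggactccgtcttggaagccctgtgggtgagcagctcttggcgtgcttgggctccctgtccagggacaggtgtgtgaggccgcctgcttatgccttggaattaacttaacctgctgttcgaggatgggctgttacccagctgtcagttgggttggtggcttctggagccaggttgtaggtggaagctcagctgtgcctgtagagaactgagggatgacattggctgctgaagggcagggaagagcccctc

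The labels were first checked on the targeted genes. Hdac1 had log2 values of 8.75, 8.96 and 8.85 in dKO nerves, against 10.48, 10.38 and 10.36 in control nerves. Hdac2 had values of 11.22, 10.81 and 11.19 in dKO nerves and of 12.34, 12.33 and 12.33 in control nerves. Both fell, with log2 changes of -1.55 (adjusted p = 0.000271) for Hdac1 and -1.26 (adjusted p = 0.00103) for Hdac2. Transcripts of Schwann cells were present throughout, with a mean over 8 lineage markers of 9.02 to 9.35 in dKO and 9.11 to 9.29 in control nerves. Of the 8, Ngfr and Fabp7 rose and S100b and Erbb3 fell, so similar means do not show an unchanged lineage. Xist was high (11.24 to 11.67) on dKO 2, dKO 3 and control 2 and low (4.14 to 5.31) on the other arrays, which places both sexes in both groups.

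Markers of other cells of the nerve differed between the groups. Over all genes tested, 12.6% were higher and 9.38% lower in dKO nerves at an adjusted p under 0.05 (limma), the share against which the counts below are read. Of 9 tested fibroblast markers 4 rose and 0 fell, and their mean log2 level was 9.68 to 9.98 in dKO nerves, against 8.72 to 9.18 in control nerves. Of 8 perineurial markers 4 rose and 1 fell, with a mean level of 7.31 to 7.72 in dKO and 6.24 to 6.95 in control nerves, although the perineurium had been removed. Macrophage markers (3 of 8 higher, mean level 7.39 to 8.15 in dKO and 6.94 to 7.12 in control nerves) and pericyte or smooth muscle markers (3 of 9 higher, 8.15 to 8.54 in dKO and 7.87 to 7.92 in control nerves) also included genes that rose. Endothelial markers had 0 of 8 past the threshold (7.55 to 8.01 in dKO and 7.02 to 7.49 in control nerves, with 3 of 8 at an unadjusted p under 0.05). Of these lists, the macrophage marker Cd14 alone was under the limit on all 6 arrays. In whole nerve, more cells of a type and more RNA per cell cannot be told apart. The part of these cells in the changes of Wnt genes described below was not tested.

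Of the 51 genes, 16 were higher and 3 were lower in dKO nerves at an adjusted p under 0.05 (limma, Benjamini-Hochberg over all 14550 genes). Over all genes tested 22.0% were called, 12.6% higher and 9.38% lower, whereas 37.3% of the 51 were. The median log2 change, dKO minus control, was 0.13 over the 51 genes and 0.01 over all genes. The dKO and control values did not overlap for 26 of the 51 (51.0%), against 40.9% of all genes. The largest numbers of higher genes were among secreted inhibitors (5 of 7), Frizzled receptors (4 of 9) and Wnt ligands (4 of 15). Of the 5 tested genes of beta-catenin and its destruction complex, 0 passed the threshold, and 1 of the 5, Axin2, had an unadjusted p under 0.05.

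**Figure D1:**
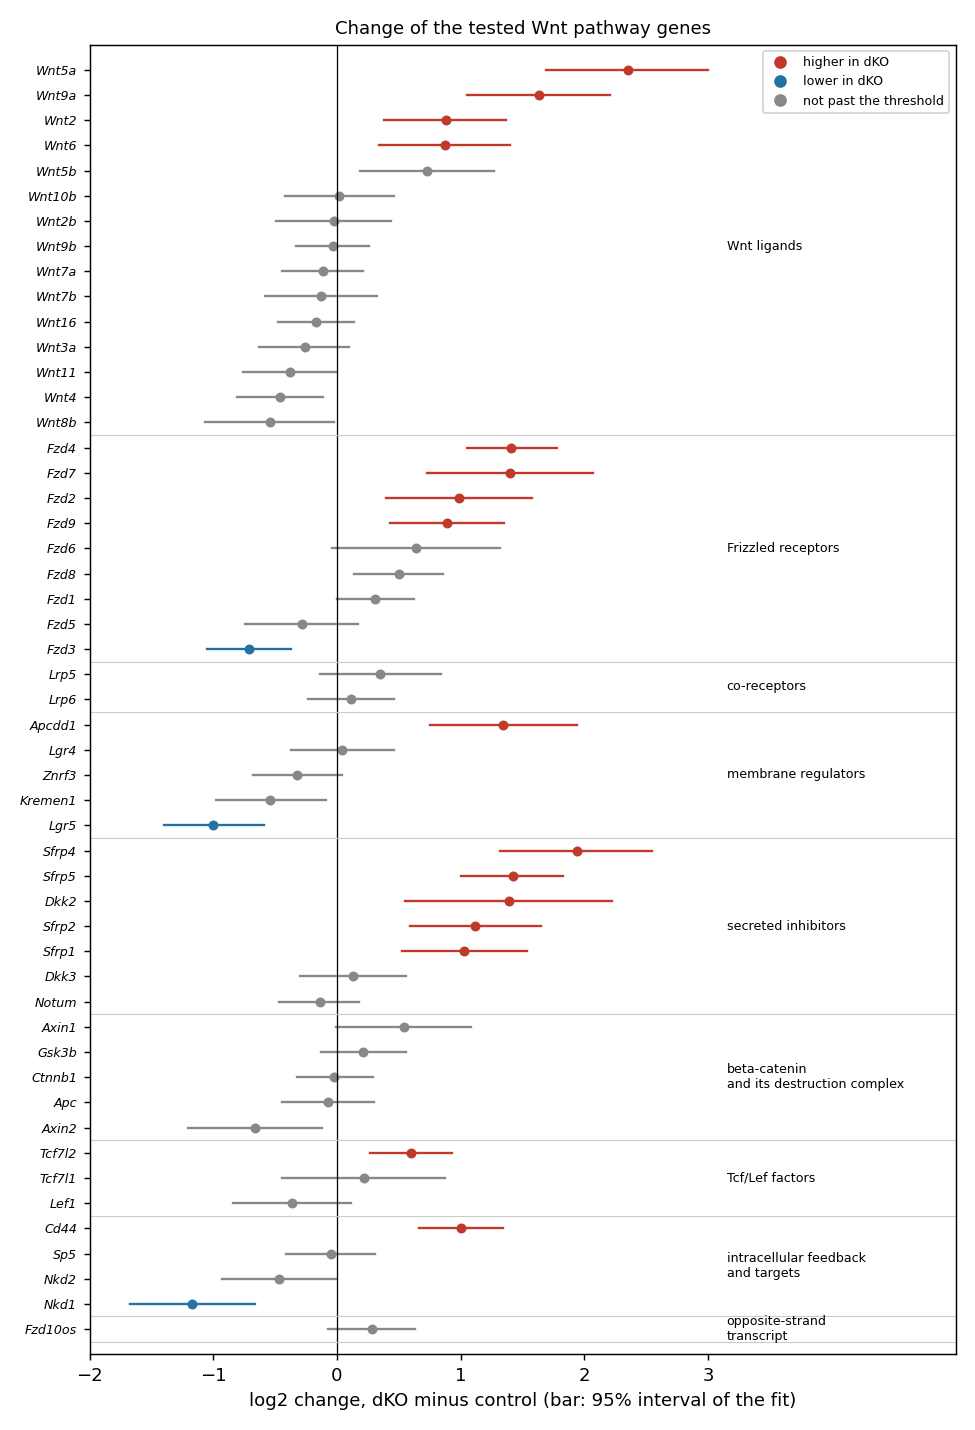
Log2 change, dKO minus control, of the 51 tested genes, grouped by role, with the 95% interval of the limma fit (n = 3 arrays per group). The 16 genes in red were higher and the 3 in blue lower in dKO nerves; the largest change is that of Wnt5a at 2.35.

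Among the ligands, Wnt5a, which mostly signals through the branches that do not use beta-catenin, had the largest change. It had log2 values of 7.37, 7.44 and 8.16 in dKO nerves, against 4.79, 5.45 and 5.69 in control nerves. The lowest dKO array lay well above the highest control array, and the difference was 2.35 on the log2 scale, or 5.09-fold (SE 0.29, adjusted p = 0.001). This was above 99.3% of all genes tested. All 3 of its probe sets above the limit rose, by 2.35 to 3.33.

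Wnt9a, a ligand studied mainly in joint and skeletal development, had values of 7.28, 6.44 and 7.19 in dKO nerves and of 5.10, 5.26 and 5.67 in control nerves. The groups were apart, and Wnt9a rose by 1.63 (SE 0.25, adjusted p = 0.00291). Its other probe set was under the limit on all arrays, which brings the change to 0.75 when both are averaged (adjusted p = 0.0142). Wnt6, a ligand of epithelial and neural crest tissues, had values of 8.81, 8.70 and 9.52 in dKO nerves and of 8.24, 8.26 and 7.91 in control nerves. It rose by 0.87 (SE 0.23, adjusted p = 0.029) without overlap, on a probe set of a class whose probes may also match other transcripts, and its second probe set changed by 0.32 and did not pass. Its adjusted p was 0.0575, 0.0621 and 0.0866 without control 1, control 2 and control 3, and 0.0706 once sex was a term, so that each of these ended the call.

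Wnt2, a ligand that also marks some nerve fibroblasts, had values of 4.11, 4.82 and 4.33 in dKO nerves and of 3.27, 3.63 and 3.74 in control nerves. All control arrays were under the limit, which gives a difference of at least 1.34-fold, higher in dKO (adjusted p = 0.0214), and Wnt2 entered the test only through its dKO arrays. That call was lost without dKO 2, control 1 or control 2 (adjusted p up to 0.0677) and with sex as a term (adjusted p = 0.0517). The remaining 11 ligands did not pass, with log2 changes of -0.54 to 0.73. Wnt5b, the closest relative of Wnt5a, had the largest change of these: its values were 6.02, 6.07 and 6.80 in dKO nerves and 5.48, 5.84 and 5.37 in control nerves (0.73, adjusted p = 0.0607), without overlap, while its other probe set changed by -0.01. Wnt4 averaged 4.97 ± 0.09 in dKO and 5.43 ± 0.20 in control nerves (SD, n = 3 each), also without overlap (-0.46, limma adjusted p = 0.0682). The lowest change was that of Wnt8b, at -0.54 with overlap (adjusted p = 0.134). Wnt3a, Wnt7a, Wnt7b, Wnt8b, Wnt9b, Wnt10b, Wnt11 and Wnt16 had means under 6 in both groups. Wnt2b, with 6.55 ± 0.39 in dKO and 6.58 ± 0.07 in control nerves, had a log2 change of -0.02 (95% interval -0.49 to 0.44).

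Of the 9 Frizzled receptors tested, 4 rose and 1 fell. Fzd4, the receptor of Norrin as well as of Wnts, had values of 8.85, 8.95 and 9.04 in dKO nerves, against 7.35, 7.47 and 7.78 in control nerves. Both groups were tight and far apart. Fzd4 rose by 1.41 (SE 0.16, adjusted p = 0.000717), and its 3 probe sets rose by 1.41 to 1.66. Ndp, which encodes Norrin, moved the opposite way. It was at 3.01, 2.99 and 2.99 in dKO nerves, all under the limit, against 4.88, 5.96 and 5.56 in control nerves, a difference of at least 2.77-fold, lower in dKO (adjusted p = 0.000512). Ndp entered the test only through its control arrays.

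Fzd7, a receptor common in progenitor cells, had values of 9.35, 8.97 and 9.0 in dKO nerves and of 7.06, 7.75 and 8.30 in control nerves. It rose by 1.40 (SE 0.29, adjusted p = 0.0111), with the control arrays spread more widely than the dKO arrays. A dim second probe set had a change of 0.12, and the 2 averaged gave 0.76 (adjusted p = 0.0171). Fzd2, which can act in the Wnt5a branch, had values of 9.97, 9.11 and 9.76 in dKO nerves and of 8.29, 8.65 and 8.94 in control nerves. The highest control array came close to the lowest dKO array, the change was 0.99 (adjusted p = 0.0263), and the call was lost without dKO 1, dKO 3, control 1 or control 2 (adjusted p up to 0.0868).

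Fzd9, a Frizzled best known from the nervous system and bone, was dim, at 5.17, 5.40 and 5.65 in dKO nerves and 4.86, 4.30 and 4.38 in control nerves. It rose by 0.89 (adjusted p = 0.0149), a call lost without control 2 (adjusted p = 0.0583). Fzd3, a receptor of the planar polarity branch used in axon guidance, was the Frizzled that fell. Its values were 9.5, 9.40 and 9.26 in dKO nerves and 10.28, 10.03 and 9.98 in control nerves, lower on every dKO array (-0.71, SE 0.15, adjusted p = 0.011). All 6 of its probe sets had negative changes, from -0.87 to -0.45, and 4 of the 6 passed.

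The other Frizzleds did not pass. Fzd8 had values of 8.16, 8.12 and 8.17 in dKO nerves and of 7.59, 7.91 and 7.45 in control nerves, without overlap (0.50, adjusted p = 0.053). It passed with probe sets averaged (0.64, adjusted p = 0.0271). Fzd6, Fzd1 and Fzd5 had log2 changes of 0.64, 0.31 and -0.28, and both Fzd1 and Fzd6 had a second probe set with a change of the opposite sign (-0.20 and -0.39). The co-receptor genes Lrp5 and Lrp6 had log2 changes of 0.35 (95% interval -0.14 to 0.84) and 0.11 (95% interval -0.23 to 0.46). The transcript Fzd10os stood close to the limit in both groups (4.41 ± 0.20 in dKO and 4.12 ± 0.10 in control nerves, SD, n = 3 each).

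Of the 7 secreted inhibitors tested, 5 rose (71.4%) and 0 fell. Sfrp genes encode soluble proteins with a Frizzled-like domain that bind Wnts, and all 4 tested here rose. Sfrp4 had values of 8.63, 8.88 and 9.09 in dKO nerves, against 6.46, 6.81 and 7.52 in control nerves. It rose 3.83-fold, or by 1.94 on the log2 scale (SE 0.27, adjusted p = 0.0017), a change above that of 98.8% of all genes. Sfrp5 had values of 9.66, 9.68 and 9.94 in dKO nerves and of 8.15, 8.67 and 8.21 in control nerves, and it rose by 1.42 (SE 0.18, adjusted p = 0.00122). Both of its probe sets rose, by 0.84 and 1.42.

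Sfrp2 had values of 7.62, 7.28 and 7.77 in dKO nerves and of 6.0, 6.49 and 6.82 in control nerves. It rose by 1.12 (SE 0.23, adjusted p = 0.0107) on its only probe set. Sfrp1 had values of 9.97, 9.92 and 9.46 in dKO nerves and of 8.41, 8.73 and 9.11 in control nerves. It rose by 1.03 (SE 0.22, adjusted p = 0.0119), with 4 of 5 probe sets past the threshold and changes of 0.65 to 1.5. In none of the 4 Sfrp genes did the groups overlap.

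Dkk2, a secreted ligand of Lrp5 and Lrp6 that can inhibit the pathway, had values of 7.07, 7.25 and 6.51 in dKO nerves and of 4.76, 5.66 and 6.25 in control nerves. It rose by 1.39 (SE 0.36, adjusted p = 0.0281), with the widest control spread of the 19 genes called in the set of 51. The call was lost without dKO 1, dKO 2 or control 2 (adjusted p up to 0.0935) and with sex as a term (adjusted p = 0.0563). Dkk3, a related glycoprotein with a less settled role, averaged 9.80 ± 0.35 in dKO and 9.67 ± 0.04 in control nerves (log2 change 0.13, 95% interval -0.30 to 0.56). Notum, an enzyme that removes the lipid from Wnts, was dim in both groups and had a log2 change of -0.14.

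**Figure D2:**
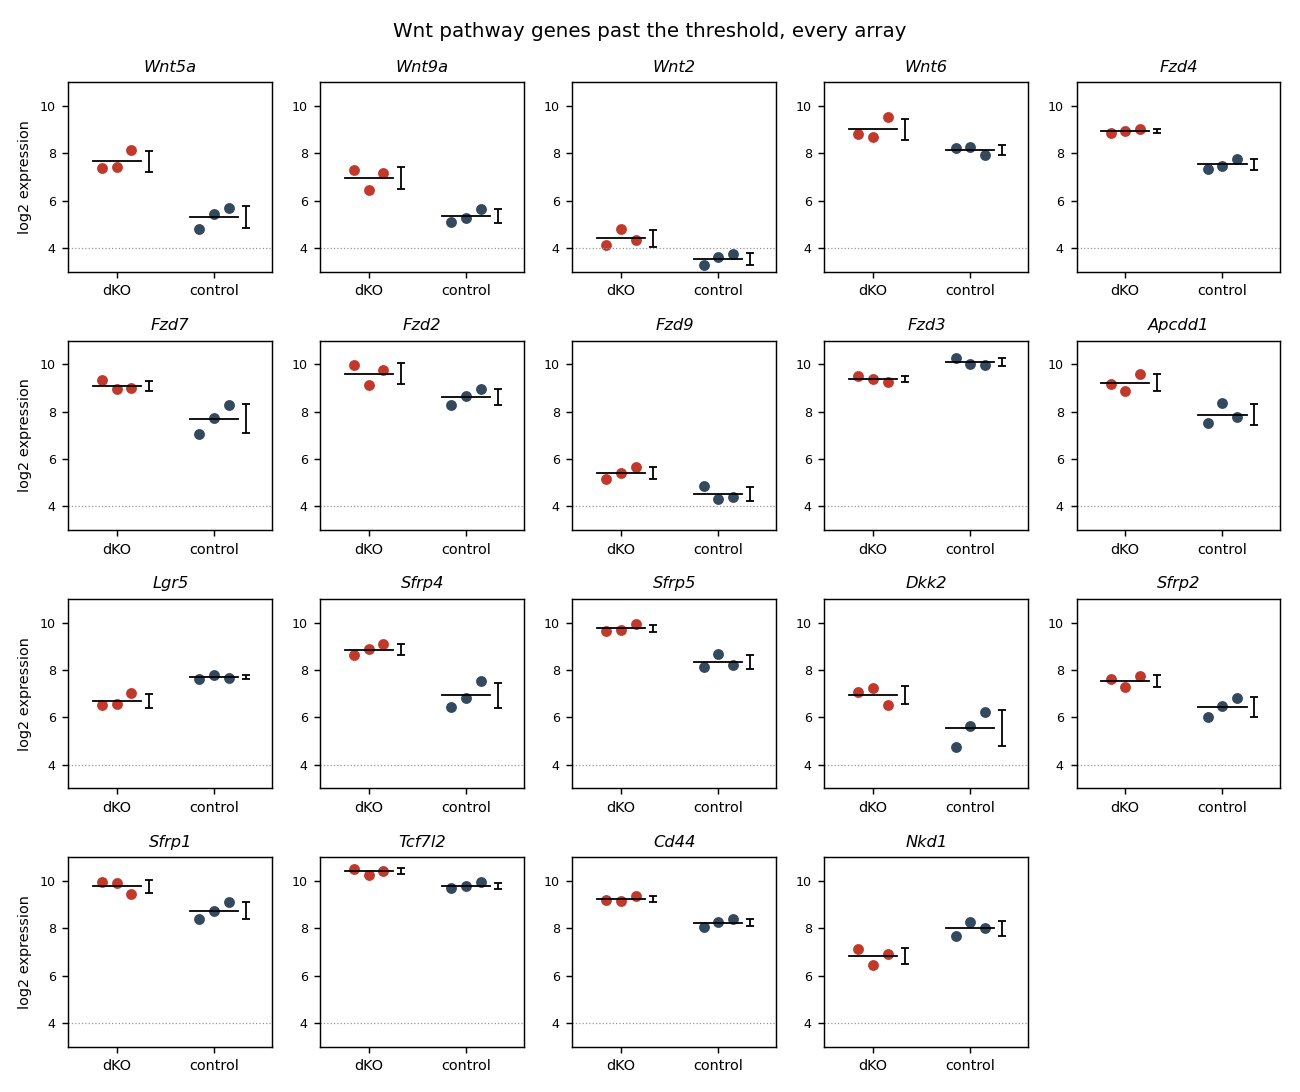
Log2 expression on every array for the 19 genes past the threshold (dKO left, control right; lines are means, bars are SD, n = 3 each, and the dotted line is the limit of 4). In each panel the 3 dKO points lie on 1 side of the 3 control points, and the controls of Dkk2 and Fzd7 spread from 4.76 to 6.25 and from 7.06 to 8.30.

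Regulators at the membrane moved in both directions. Apcdd1, a membrane inhibitor of Wnt signalling, had values of 9.16, 8.89 and 9.61 in dKO nerves and of 7.51, 8.35 and 7.78 in control nerves. It rose by 1.34 (SE 0.26, adjusted p = 0.0079) on a probe set of the class that may match other transcripts, and 3 of its 5 probe sets above the limit passed, with changes of 0.28 to 1.57 over the 5. Lgr5, a receptor of R-spondins that enhances Wnt signalling and is itself a target of beta-catenin, had values of 6.51, 6.55 and 7.05 in dKO nerves and of 7.62, 7.79 and 7.68 in control nerves. It fell by 1.0 on the log2 scale (SE 0.18, adjusted p = 0.00535), and both of its probe sets fell. Its relative Lgr4 averaged 10.24 ± 0.23 in dKO and 10.20 ± 0.24 in control nerves, a log2 change of 0.04 (95% interval -0.37 to 0.46), with -0.53 on its second probe set, which did not pass. Kremen1, a partner of Dkk proteins, had values of 8.68, 8.35 and 8.76 in dKO nerves and of 9.31, 9.30 and 8.79 in control nerves. Those groups did not overlap, by a small margin, and the change of -0.54 did not pass (adjusted p = 0.0861). Znrf3, a ubiquitin ligase that removes Frizzleds, had a change of -0.32 (adjusted p = 0.188).

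Among beta-catenin and its destruction complex, the changes ran from -0.66 to 0.54. Ctnnb1, which encodes beta-catenin, averaged 12.98 ± 0.09 in dKO and 12.99 ± 0.07 in control nerves, a log2 change of -0.02 (95% interval -0.32 to 0.29). The scaffold gene Apc had a change of -0.07 (95% interval -0.44 to 0.30) and the kinase gene Gsk3b one of 0.21 (95% interval -0.13 to 0.56), although 1 of 6 Gsk3b probe sets rose by 0.86. The scaffold gene Axin1 had values of 7.62, 8.07 and 7.32 in dKO nerves and of 6.78, 7.18 and 7.43 in control nerves, which overlap (0.54, adjusted p = 0.15). Axin2, a scaffold whose transcript is also a widely used readout of beta-catenin activity, had values of 7.39, 7.47 and 6.83 in dKO nerves and of 8.29, 7.78 and 7.61 in control nerves. These did not overlap, and the change of -0.66 did not pass (adjusted p = 0.0831), with -0.07 on its second probe set.

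Of the Tcf and Lef factors, Tcf7l2, a main partner of beta-catenin, had values of 10.52, 10.27 and 10.44 in dKO nerves and of 9.69, 9.79 and 9.95 in control nerves. It rose by 0.60 (SE 0.14, adjusted p = 0.0202) on 1 of 3 probe sets above the limit. The call was lost with probe sets averaged (0.39, adjusted p = 0.162), with the probe set of largest variance (0.49, adjusted p = 0.281) and without dKO 1, control 1 or control 2 (adjusted p up to 0.0733). Tcf7l1, mostly a repressor, overlapped between the groups (log2 change 0.22, 95% interval -0.44 to 0.87). Lef1, whose transcript often follows pathway activity, had values of 5.83, 5.68 and 6.29 in dKO nerves and of 6.26, 6.58 and 6.05 in control nerves, with a change of -0.36 (adjusted p = 0.257).

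Genes often induced by the pathway went both ways. Nkd1, an intracellular inhibitor that binds Dishevelled, had values of 7.12, 6.45 and 6.93 in dKO nerves and of 7.68, 8.28 and 8.04 in control nerves. The change was -1.17 (adjusted p = 0.00728), and all 4 probe sets fell, by 0.72 to 1.17 on the log2 scale. Nkd2, its relative, had a change of -0.47 (adjusted p = 0.146). Cd44, a hyaluronan receptor and target of beta-catenin in other tissues, had values of 9.19, 9.18 and 9.38 in dKO nerves and of 8.07, 8.29 and 8.39 in control nerves. It rose by 1.0 (SE 0.15, adjusted p = 0.00231), and its 2 other probe sets above the limit had changes of 0.64 and 0.76 that did not pass. Sp5, a transcription factor and direct target, stood near the limit on all arrays (3.93 ± 0.23 in dKO and 3.98 ± 0.09 in control nerves, SD, n = 3 each).

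**Figure D3:**
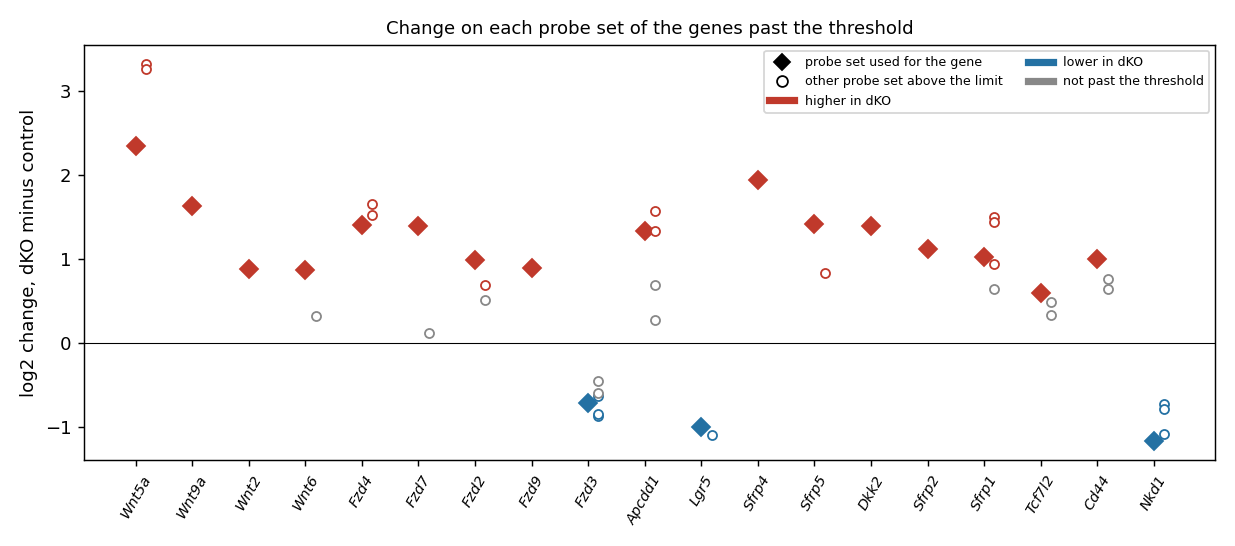
Log2 change, dKO minus control, on each probe set above the limit for the 19 genes past the threshold; filled diamonds are the probe sets used, and open circles the others of the same gene. Wnt5a, Fzd4, Sfrp5, Lgr5 and Nkd1 passed on all of several probe sets, while Fzd7 and Wnt6 passed on 1 of 2.

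Other genes of the pathway were read from lists of general knowledge, chosen with earlier results of these data known. The share called in each list therefore describes that list and tests nothing. Over all genes tested 22.0% were called. Of 10 tested genes for Wnt secretion, R-spondins and the heparan sulfate proteins that hold Wnts, 6 rose and 0 fell (60% called), with a median log2 change of 0.93. Sulf2 and Sulf1, sulfatases that release Wnts from heparan sulfate, both rose. The change was 2.05 for Sulf2 (adjusted p = 0.00113) and 1.91 for Sulf1 (adjusted p = 0.00106), or 1.51 for Sulf2 and 1.23 for Sulf1 when probe sets were averaged. The probe set used for Sulf2 is of the class that may match other transcripts, and of its other 2 probe sets 1 rose by 2.30 and 1 had a change of 0.18 that did not pass (adjusted p = 0.553). Rspo1, an R-spondin that binds Lgr receptors, had values of 7.07, 6.82 and 7.86 in dKO nerves and of 5.14, 5.18 and 6.35 in control nerves (1.70, adjusted p = 0.0143), a call lost without control 2 (adjusted p = 0.0534). Wls, the carrier that brings Wnts to the cell surface, had values of 9.15, 9.11 and 8.29 in dKO nerves and of 7.60, 7.63 and 7.77 in control nerves (1.19, adjusted p = 0.00867), and all 3 of its probe sets above the limit rose. Porcn, which attaches the lipid, had a change of -0.01 (adjusted p = 0.969).

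Of 9 other secreted or membrane modulators, 2 rose and 2 fell (44.4% called), with a median of -0.24. Besides Ndp these were Igfbp4, a growth factor binding protein that can inhibit Wnts (1.45, and 1.23 to 2.39 over 6 probe sets that all passed), Tpbg, a Wnt inhibitor at the membrane (0.80), and Dkk4, a dim Dkk gene (-0.58). Tpbg did not pass with the probe set of largest variance (adjusted p = 0.0545). The Dkk4 call was lost when any array other than dKO 2 was left out (adjusted p up to 0.0977), with the probe set of largest variance and with sex as a term. Of 24 signal transducers and partners of the destruction complex, 3 rose and 1 fell, with a median of -0.00. That is 16.7% called, under the share over all genes. Ctnnbip1, which blocks the contact of beta-catenin with Tcf factors, Amer1, a partner of Apc, and Dixdc1, a positive regulator related to Dishevelled, rose by 0.98, 0.71 and 0.67 (1.34 for Dixdc1 on its probe set of largest variance), and the casein kinase gene Csnk1g3 fell by 1.18 on the log2 scale. The Dishevelled genes Dvl1, Dvl2 and Dvl3 had changes of 0.27, -0.31 and -0.14, and 0 of the 3 passed, adjusted or at an unadjusted p under 0.05.

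Of 20 nuclear cofactors, 4 rose and 2 fell (30% called), with a median of 0.11, and 3 of these 6 calls were kept with probe sets averaged. Tle5 and Tle4, genes of the Groucho family, which includes corepressors, rose by 1.09 and 1.06, and the corepressor gene Ctbp2 rose by 0.73. Tle1, another Groucho gene, fell by 0.76 on the log2 scale, with the call lost with probe sets averaged and without dKO 1, dKO 2, control 2 or control 3 (adjusted p up to 0.105). Of 26 genes of the non-canonical and planar polarity branches, 7 rose and 4 fell (42.3% called), with a median of -0.02. These counts depended on the arrays and terms used. Of the 11 calls, 5 were kept without control 1 (3 higher and 2 lower), 6 without control 2, 6 without dKO 2 and 6 with sex as a term. Calls over all genes also fell under these alternatives, from 3198 to between 2178 and 2407. Vangl2, Prickle1, Daam2, Celsr2 and Prkca were lost under each of these 4 alternatives. Ptk7, a pseudokinase receptor of planar polarity, had values of 6.51, 7.07 and 6.81 in dKO nerves and of 4.89, 5.07 and 5.36 in control nerves (1.69, adjusted p = 0.000769). Musk, a receptor kinase of the neuromuscular junction with a Frizzled-like domain, had values of 5.82, 5.43 and 5.03 in dKO nerves and of 8.23, 7.09 and 7.17 in control nerves (-2.08, adjusted p = 0.00307).

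Daam1, which links Dishevelled to the actin cytoskeleton, rose by 1.2, and Nfatc4 rose by 1.15 on 1 of 3 probe sets above the limit, with a change of 0.22 that did not pass when probe sets were averaged. The Wnt5a receptors Ror2 and Ryk moved in opposite directions. Ror2 had values of 7.82, 7.68 and 8.37 in dKO nerves and of 6.85, 7.12 and 7.20 in control nerves (0.90, adjusted p = 0.0159), a call lost without control 1 and with probe sets averaged (adjusted p up to 0.151). Ryk had values of 8.02, 8.06 and 8.24 in dKO nerves and of 8.91, 9.01 and 8.97 in control nerves (-0.86, adjusted p = 0.00311), and all 3 of its probe sets fell.

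Of 27 other genes often used as readouts of beta-catenin, 5 rose and 1 fell, with a median of 0.15. That is 22.2% called, against 22.0% over all genes. Of the 5 genes that rose, 3 kept the call without dKO 1, dKO 2, control 1, control 2 or control 3, leaving out 1 array at a time, and 3 with sex as a term. The losses were Cldn1 and Twist1, given below, Prox1 (sex, control 1 and control 3) and Vegfa (control 3). Tbx3, a T-box repressor, had values of 6.43, 6.89 and 6.70 in dKO nerves and of 4.55, 4.35 and 4.08 in control nerves (2.35, adjusted p = 0.000198), and the average of its probe sets changed by 0.93 (adjusted p = 0.00299). The cell adhesion gene Nrcam, known from nodes of Ranvier, fell by 1.76 on the log2 scale (adjusted p = 0.000555), and all 4 probe sets fell. Cldn1, a tight junction gene that is also on the perineurial list, had values of 9.02, 9.10 and 8.87 in dKO nerves and of 6.41, 7.22 and 8.25 in control nerves. It rose by 1.70 (adjusted p = 0.0173; 0.83 with probe sets averaged), with the call lost without dKO 1, dKO 2 or control 2 (adjusted p up to 0.0584). Twist1, a mesenchymal factor, rose by 1.35 (adjusted p = 0.0465), a call lost with no low-value limit, with sex as a term and without dKO 1, dKO 2, dKO 3, control 1 or control 2 (adjusted p up to 0.135). Ccnd1, Myc and Jun had changes of -0.13, 0.64 and 0.27, and 0 of these 3 passed, adjusted or at an unadjusted p under 0.05.

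The control arrays differed among themselves in the genes that rose. Control 1 was the lowest control array for 14 of the 16 higher Wnt pathway genes and control 3 the highest for 12 of 16. Over all 1833 genes that were higher in dKO nerves, control 1 was the lowest for 53.3% and control 3 the highest for 40.4%. The fibroblast and perineurial markers were also lowest on control 1 and highest on control 3, with means of 8.72 and 9.18 and of 6.24 and 6.95. A list of cartilage markers had the same order, with 5.65 on control 1 and 5.85 on control 3. Endothelial markers were lowest on control 1 (7.02) and highest on control 2 (7.49). Macrophage markers were lowest on control 3 (6.94), and pericyte or smooth muscle markers on control 2 (7.87). Relative to the mean of the controls, the 16 genes averaged 1.25, 1.16 and 1.39 on dKO 1, dKO 2 and dKO 3, a direction that their choice fixes. The same difference was 0.71 to 1.01 for the fibroblast markers and 0.72 to 1.13 for the perineurial markers. The myelin markers stood at -1.90 on dKO 1, against -3.33 and -2.98 on dKO 2 and dKO 3. For the 16 genes dKO 1 lay between the other dKO arrays. So few arrays allow few orders, and the part of cell content in these patterns was not tested.

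**Figure D4:**
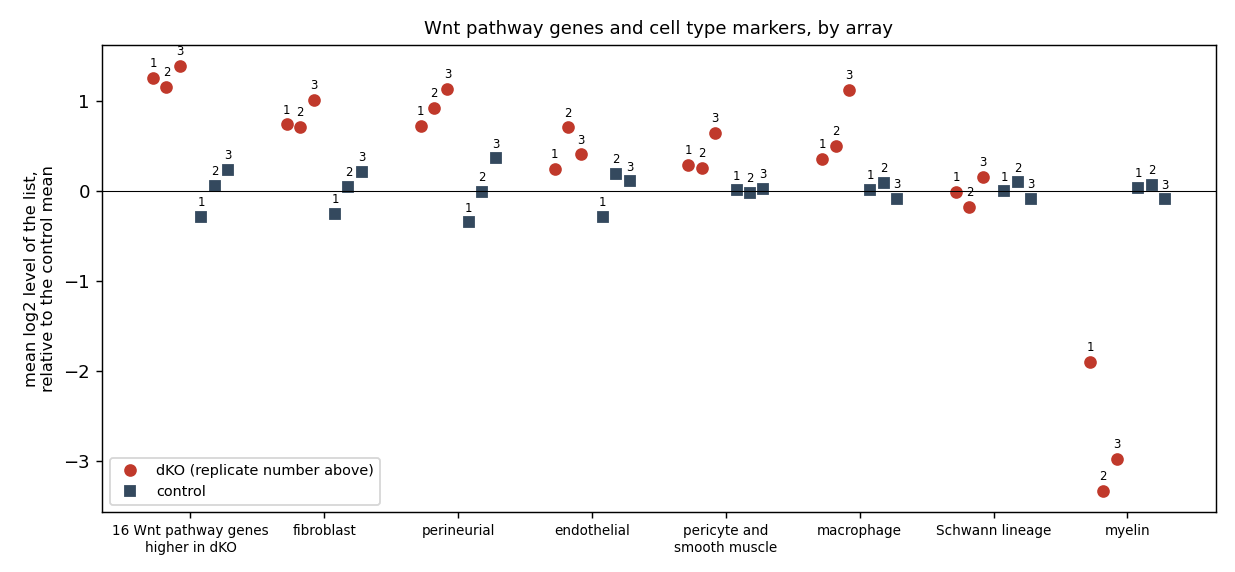
Mean log2 level on each array, relative to the mean of the 3 control arrays, of the 16 Wnt pathway genes higher in dKO nerves and of 7 marker lists (red circles dKO, dark squares control, replicate number above). The 16 genes, chosen for being higher, lie at 1.16 to 1.39 on the dKO arrays; fibroblast markers lie at 0.71 to 1.01, and on the control arrays both are lowest on control 1 and highest on control 3.

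Of the 19 genes past the threshold, 13 passed with each of the 6 arrays left out in turn. The other 6 were Wnt2, Wnt6, Fzd2, Fzd9, Dkk2 and Tcf7l2. All 19 had a change of the same sign among the arrays with high Xist (2 dKO, 1 control) and among those with low Xist (1 dKO, 2 control). The dKO and control values did not overlap in any of the 19, which fixes that sign in advance. This split therefore gives no information on sex.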

How the data were processed

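Total RNA of 6 nerve samples was measured on 1-colour arrays. The authors deposited 1 log2 expression value for each probe set, between 1.66 and 14.94; per the submitters' processing notes, GCOS 1.2 and GCRMA were used, with no settings given. The log base was read from the values. The median was 5.77 on every array and sorted values differed by at most 0.01, so the authors had made the arrays equal in distribution, which hides any shift shared by most genes. The small number of arrays limits the precision. Values under 4 have little meaning as levels.

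Of 45101 probe sets, 34958 had 1 gene symbol in the platform annotation, 932 several and 9211 none here. Symbols were updated by gene ID through a RefSeq table of GRCm38.p6. Changes (dKO minus control) were fitted with limma 3.58.1 (lmFit, eBayes) in R 4.3.3 and two-sided p-values were adjusted by Benjamini-Hochberg over all 14550 genes, and for single probe sets over all probe sets. The fit was tested on simulated data with noise drawn separately for each gene and array, which leaves out differences shared by the genes of an array. If a whole group lay under 4, values under 4 were set to 4 and the fold is a bound. Every gene of the pathway set is accounted for, and those past the threshold are given with all values. Of each further list, up to 4 called genes of largest change were named. Ror2, Ryk, Porcn, the Dvl genes, Ccnd1, Myc, Jun, the Schwann cell markers and the further genes listed as lost calls were named after their values were seen. The genes and lists were chosen with earlier results of these data known.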

Additional observations from a re-analysis of the deposited data

How the results depend on the processing

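Alternatives were probe sets averaged or chosen by variance, no low-value limit or a limit of 6, arrays centred on their median over the genes tested, an intensity trend, robust variances, a replicate block, sex as a term, and each array left out. Of the 19 Wnt pathway calls, 12 were kept in all 15 alternatives in which the gene could be tested, 7 were lost in at least 1, and 0 changed sign. With a replicate block, 14 genes of the pathway were higher and 3 lower, and 1501 and 1056 of all genes; Tcf7l2 and Wnt6 were the calls it ended among the 19 (adjusted p = 0.0575 and 0.0598), and of the 37 calls in the further lists it ended 7 (Bcl9l, Daam2, Dkk4, Prickle1, Tle1, Vangl2 and Vegfa). The replicate numbers showed no pairing: deviations from the group means correlated at 0.04, -0.12 and -0.23 between arrays of the same number. Between arrays of different number the correlations ran from -0.16 to 0.22, and 3 arrays per group are too few to exclude a pairing. With sex as a term the pathway counts were 13 and 3. Leaving out arrays gave 11 to 15 higher and 3 to 4 lower pathway genes. Among all genes tested it gave 1246 to 1585 higher and 891 to 1331 lower. The 11 and the 891 came without control 2, and the 1246 without dKO 2. Besides the losses given above, Cd44 was lost with the probe set of largest variance (0.76, adjusted p = 0.133), and Fzd9 and Wnt2 were not tested under a limit of 6. Gained calls were Fzd8 under 4 alternatives, Kremen1 under 2 (centred arrays and without control 3) and Gsk3b under 1. Over the genes tested, the shift of the array medians, dKO minus control, was 0.08 on the log2 scale. Changes in genes near the limit of 4 cannot be seen well.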
